A study of Mus musculus with 8 samples.

Results

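The cytosolic ribosomal protein genes were followed across 8 RNA-seq libraries of mouse embryonic fibroblasts (MEFs) with and without a small molecule. Members were taken by symbol alone: every gene named Rpl or Rps with a number and at most a short suffix, together with Rplp0, Rplp1, Rplp2 and Rpsa, and without symbols that carry the pseudogene mark. This gave 88 of the 50578 genes in the table, 52 with large-subunit and 36 with small-subunit names. The rule used no measured value, but it was set with earlier results of these data known. GENCODE M21 annotates 83 of them as protein coding and calls Rpl6l, Rps12l1, Rps3a2, Rps3a3 and Rps4l processed pseudogenes.

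Each of 4 groups had 2 libraries: MEFs labelled as control, and MEFs given 1 of 3 molecules, carbidopa, LY-364947 and CHIR-99021, each at 10 µM. Every group was wild type and came from C57BL/6J embryos whose head, tail, limbs and internal organs had been removed. Cells were at passage 3 to 5 and attached for 2 hours before the molecule was added. The question was whether the molecules, which a computational screen had picked, move fibroblasts towards a hepatic state. Carbidopa blocks aromatic amino acid decarboxylase, LY-364947 blocks the type I TGF-beta receptor kinase, and CHIR-99021 blocks the kinase GSK3. The labels spell the receptor inhibitor LY-364747. The control vehicle is not given in the sources used here and a length of treatment is given for real-time PCR but not for these libraries, and nothing says that paired libraries came from separate cultures, so p-values measure only the spread between these libraries.

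A ribosome is built in the nucleolus from ribosomal RNA, which RNA polymerase I transcribes, and from one copy of nearly every ribosomal protein, with many assembly factors that leave before the particle is finished. Ribosomal protein mRNAs are abundant and most begin with a terminal oligopyrimidine (TOP) tract, a run of C and T through which the kinase mTOR sets their translation. Their transcription follows growth signals and Myc, and a few members have paralogs with a narrower tissue range.

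Libraries held 15039566 to 20504338 reads on genes. The treated cells carry the label hepatic-like, and 0 of 12 hepatocyte markers had enough reads to test. Alb had 2 and 0 reads in MEF and 5 to 10 in the treated libraries. Hnf4a had 1 and 2 against 6 to 10, so all 6 treated libraries lay above MEF for both. No other marker of the 12 separated the groups in this way. Apob had 10 and 2 reads in MEF against 0 to 6 in the treated libraries, and Apoa2 had 0 and 5 against 3 to 18. The most for 1 marker in 1 library was 18 reads (Apoa2), and Serpina1a, Tat, Cyp3a11 and Cyp2e1 had none in any library. Fibroblast markers were abundant in all 8 libraries, and against MEF 10 of 12 were lower and 1 was higher in each treatment (adjusted p under 0.05, edgeR). Macrophage markers summed to 1059 and 1070 CPM (counts per 1000000 reads) in MEF, 363 to 400 CPM after carbidopa, 266 to 277 CPM after LY-364947 and 91.1 to 98.4 CPM after CHIR-99021, and 11, 11 and 12 of 12 were lower. Of 8 epithelial markers 3 could be tested, and 1, 1 and 3 were higher. Erythroid markers had at most 4 reads each per library. These cell mixtures moved with every comparison with MEF below, and their part in the ribosomal protein values was not tested; in bulk RNA fewer cells of a type and less RNA per cell cannot be told apart.

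Reads on the 88 genes made up 2.21% and 2.17% of the MEF libraries. The share was 3.62% in carbidopa replicate 1 and 2.61% in carbidopa replicate 2. It was 2.44% and 2.64% after LY-364947, and 2.48% and 2.31% after CHIR-99021. All 6 treated libraries thus lay above both MEF libraries, and carbidopa replicate 1 lay apart from the other 7. As mean ± SD (n = 2) the shares were 2.19 ± 0.0297% in MEF, 3.11 ± 0.711%, 2.54 ± 0.144% and 2.397 ± 0.117%. With 2 libraries against 2 no exact permutation test can reach 0.05, so none was run.

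The share is relative to all reads, and the composition of the libraries differed. Trimmed-mean (TMM) scaling factors, which adjust for a few very abundant genes, were 0.880 and 0.895 in MEF and 1.03 to 1.06 in the treated libraries. After that scaling the members' median log2 fold change against MEF was 0.23 for carbidopa, 0.00 for LY-364947 and -0.13 for CHIR-99021. The medians over all 15154 genes tested were 0.04, 0.03 and 0.04. The higher share of reads after CHIR-99021 therefore went with a negative median on the scaled values.

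**Figure D1:**
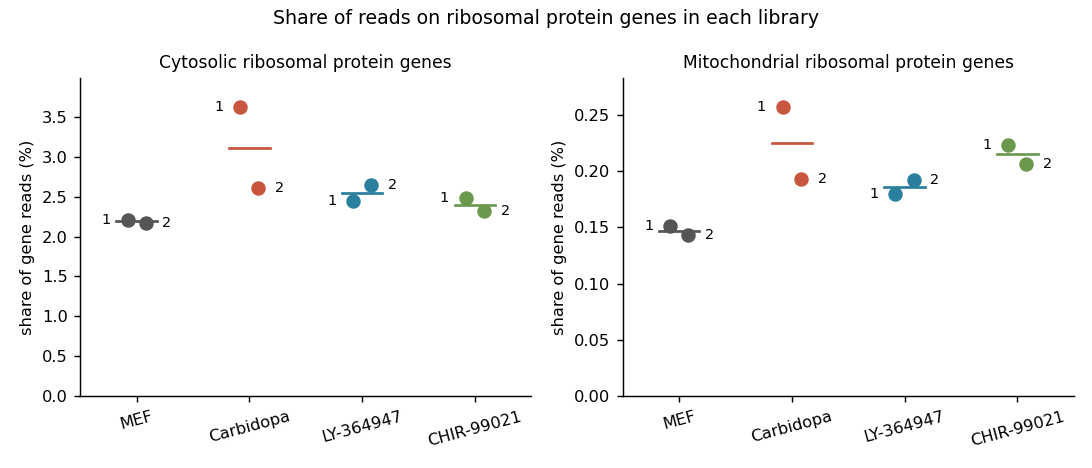
Share of gene reads (%, axis from 0) on the 88 cytosolic ribosomal protein genes (left) and on the 78 mitochondrial ribosomal protein genes (right), 1 point per library with its replicate number and a line at the mean of 2. Carbidopa replicate 1 is the highest library in both panels, at 3.62% and 0.256%, and the MEF libraries are the lowest.

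Carbidopa replicate 1 stood apart throughout. After scaling, 79 of the 85 members tested had their highest level of all 8 libraries there. It exceeded both MEF libraries for 81 members, while carbidopa replicate 2 exceeded both for 36 and lay below both for 28. The median difference between the carbidopa replicates was 0.42 on the log2 scale, with 83 of 85 members higher in replicate 1, against a median of 0.01 over all genes tested. In MEF, LY-364947 and CHIR-99021 the members' median differences between replicates were 0.01, -0.10 and 0.08.

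The differences between replicates varied with base composition and transcript length. Across the 85 members Spearman's rho between the replicate difference and the GC percent of the principal transcript was 0.45 in carbidopa, 0.53 in CHIR-99021, -0.36 in LY-364947 and 0.19 in MEF. Over 15126 genes with an annotated transcript the values were 0.29, 0.39, -0.39 and 0.18. With transcript length the carbidopa replicate difference had a rho of -0.48 over all genes, where the largest in the other groups was 0.13 (LY-364947), and of 0.25 across the members, whose transcripts are short (median 775 bases against 2762 for all genes). These describe pairs of libraries across genes that share those libraries. What set the libraries apart was not tested.

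**Figure D2:**
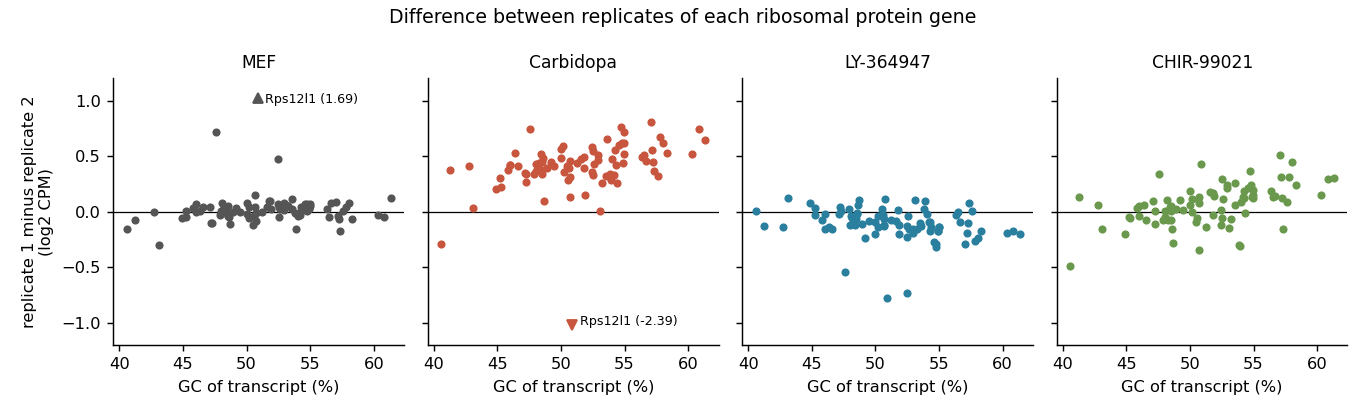
Difference between replicate 1 and replicate 2 (log2 CPM with 0.1 added) of each of 85 ribosomal protein genes against the GC percent of its principal transcript, 1 panel per group. The carbidopa points lie almost all above 0 (83 of 85), and a triangle marks a gene beyond the axis with its value.

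The levels ranged widely between members. Of the 85 tested, 74 averaged over 100 CPM and 3 under 10 CPM, and the median was 259 CPM. Per kilobase of principal transcript the highest were Rpl23a of the large subunit (1214 RPKM, a mean over 8 libraries), Rplp1 of the ribosomal stalk (953 RPKM) and Rps2 of the small subunit (921 RPKM), against a median of 351 RPKM. None of these 3 passed the test after carbidopa or LY-364947, and of the 3 only Rplp1 did after CHIR-99021. Per-length levels depend on the transcript model, since Rps20 and Rps15a are given long principal transcripts of 3706 and 5130 bases.

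The other 3 members had too few reads to test. Rpl10l, the testis paralog of Rpl10, had 0 reads in all 8 libraries, which allows up to 3 reads in each by counting error alone. Rpl3l, the heart and skeletal muscle paralog of Rpl3, had 2 and 1 reads in the carbidopa libraries and 0 elsewhere. The processed pseudogene Rps3a3 had 1 to 15 reads per library.

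Promoter sequences are shown for 6 members described in the comparisons below: Rps27 and its paralog Rps27l, of which only the first passed the test, Rps21, called in opposite directions after carbidopa and CHIR-99021 in calls that most single omissions ended, Rpl11 and Rpl39l, higher after carbidopa, and Rpl7l1, higher after CHIR-99021. They come from RefSeq on GRCm38.p6 and run from 60 bases before to 20 bases after the annotated start, 5′ to 3′ on the gene's strand. Capitals mark CTTTC, letters typical of a TOP start, and CCGGAAG, the core of binding sites of ETS-family factors. Rps27 is at chr3:90213629-90213708 on the minus strand, Rps27l at chr9:66946026-66946105 on the plus strand, Rps21 at chr2:180257319-180257398 on the plus strand, Rpl11 at chr4:136053374-136053453 on the minus strand, Rpl39l at chr16:10170168-10170247 on the plus strand and Rpl7l1 at chr17:46782637-46782716 on the minus strand.
Rps27: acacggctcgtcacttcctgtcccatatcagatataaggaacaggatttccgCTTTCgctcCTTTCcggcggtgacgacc
Rps27l: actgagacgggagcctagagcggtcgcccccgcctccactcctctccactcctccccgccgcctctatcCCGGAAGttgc
Rps21: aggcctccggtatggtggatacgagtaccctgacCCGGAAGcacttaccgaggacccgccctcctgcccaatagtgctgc
Rpl11: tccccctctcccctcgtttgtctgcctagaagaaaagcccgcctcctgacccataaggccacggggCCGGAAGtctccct
Rpl39l: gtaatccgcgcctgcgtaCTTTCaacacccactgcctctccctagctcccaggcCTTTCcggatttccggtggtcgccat
Rpl7l1: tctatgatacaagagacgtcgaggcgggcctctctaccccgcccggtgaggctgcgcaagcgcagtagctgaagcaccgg

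RefSeq held a promoter for 63 of the 88 members. On the gene's strand within 50 bases of the start, CTTTC was found in 32 of the 63 (50.8%), against 12.8% of all 32851 promoters. CCGGAAG was found on either strand, from 250 bases before to 50 after the start, in 24 (38.1%) against 8.86%. Among the 11 members called lower after CHIR-99021 that have a promoter, 6 held CTTTC and 3 held CCGGAAG, and among the 11 called higher after carbidopa 7 and 6 did. A match describes letters in a window and does not show a working site.

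After carbidopa more members rose than fell. The members' median fold change depended on carbidopa replicate 1, and the calls depended on single libraries of carbidopa and of MEF. Every member called higher had both carbidopa libraries above both MEF libraries. Against MEF 13 of 85 members (15.3%) rose and 2 fell (adjusted p under 0.05, edgeR quasi-likelihood test with Benjamini-Hochberg adjustment over all genes tested), where 18% and 19.7% of all genes tested rose and fell, so the share that rose was near that of all genes. Both carbidopa libraries lay above both MEF libraries for 35 members (41.2%, all genes 35.6%) and below both for 3 (3.53%, all genes 33.3%). The log2 fold change was above 0 for 78 of 85, and the median was the same, 0.23, in the large and the small subunit. With carbidopa replicate 1 left out, 2 members rose, 2 fell and the median was 0.01.

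Rpl19, a large-subunit protein near the tunnel exit, had 382 and 365 CPM in MEF. It had 788 and 465 CPM in carbidopa replicates 1 and 2. Both were above MEF, the first by far more, and the log2 fold change was 0.75 ± 0.22 (SE, adjusted p = 0.0227, edgeR). Rpl41, among the shortest of all ribosomal proteins, went from 382 and 368 CPM to 711 and 433 CPM, a log2 fold change of 0.61 ± 0.19 (adjusted p = 0.0273, edgeR). Rpl11, which with Rpl5 and 5S RNA binds the p53 regulator Mdm2, went from 205 and 203 CPM to 344 and 242 CPM, a log2 fold change of 0.52 ± 0.16 (adjusted p = 0.0257, edgeR).

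Rplp2 is a protein of the acidic stalk, the lateral arm of the large subunit that recruits translation factors. It had 131 and 125 CPM in MEF and 233 and 152 CPM after carbidopa, and rose by 0.58 ± 0.17 on the log2 scale (adjusted p = 0.0215, edgeR). Its partners did not pass: Rplp0, the base of the stalk, had a log2 fold change of 0.08 ± 0.15 and Rplp1 one of 0.00 ± 0.13. Rpsa, the small-subunit protein also known as the laminin receptor precursor, had 816 and 805 CPM in MEF against 1254 and 892 CPM, and missed the threshold (log2 fold change 0.41 ± 0.15, adjusted p = 0.0518, edgeR). Rps6, the small-subunit substrate of S6 kinase, rose by 0.43 ± 0.14 (adjusted p = 0.0363, edgeR) from 536 and 543 CPM to 849 and 606 CPM. Rps21 rose by 0.34 ± 0.12 (adjusted p = 0.0456, edgeR), from 77.1 and 79.6 CPM to 110 and 87.6 CPM. With each library left out in turn Rps6 (0.17 to 0.65) and Rps21 (0.16 to 0.50) each kept the call in only 1 of 8 cases, without carbidopa replicate 2, and Rpl19, Rpl41, Rpl11 and Rplp2 kept it in 5 of 8, losing it without either MEF library or carbidopa replicate 1.

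Rpl39l, the paralog of Rpl39 known from male germ cells, rose after carbidopa with little difference between its replicates. It had 8.02 and 9.93 CPM in MEF and 13.2 and 13.0 CPM in the carbidopa libraries, which lay close together. The log2 fold change was 0.54 ± 0.16 (adjusted p = 0.0225, edgeR), and the transcript shares no 75-base word with any other annotated gene. It lost the call with MEF replicate 1 left out (adjusted p = 0.179, edgeR) and under DESeq2 (adjusted p = 0.0838). Rpl18, Rpl24, Rpl29, Rpl7a and Rps19, named because they passed the test, also rose, with log2 fold changes of 0.42 to 0.56.

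The counts for carbidopa moved with single libraries. Without carbidopa replicate 1 the members' median log2 fold change was 0.01, and without replicate 2 it was 0.43. The test called fewer members without replicate 1 and more without replicate 2. With any 1 MEF or LY-364947 library left out it called fewer than the 15 with all 8 libraries.

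LY-364947 left the members close to MEF, with log2 fold changes split evenly, 43 above and 42 below 0. No member rose and 1 of 85, Rpl39, fell (edgeR, adjusted p under 0.05), where 13.7% of all genes tested rose and 17.2% fell. At an unadjusted p under 0.05 there were 2 members (2.35%) against 40.8% of all genes tested, and DESeq2 called 0 higher and 1 lower. Both libraries lay above both MEF libraries for 21 members (24.7%, all genes 37.6%) and below both for 26 (30.6%, all genes 35.2%). The quartiles of the members' log2 fold changes were -0.08 and 0.09, against -0.31 and 0.36 for all genes. The count of calls was 10 without either carbidopa library, 2 without either CHIR-99021 library and 0 without MEF replicate 2 or LY-364947 replicate 2. A fit of these 4 libraries alone called 13.

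After CHIR-99021 more members fell than rose. Against MEF 15 of 85 (17.6%) fell and 3 (3.53%) rose, where 20.1% of all genes tested fell and 18.7% rose, so the share that fell was near that of all genes and the share that rose was below it. Both libraries lay below both MEF libraries for 48 members (56.5%, all genes 35.8%) and above both for 18 (21.2%, all genes 40.4%). The median log2 fold change was -0.12 in the large and -0.17 in the small subunit, and 57 of 85 were below 0. The 15 had a median GC of 50.6%, and the 70 other members tested one of 51.9%.

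**Figure D3:**
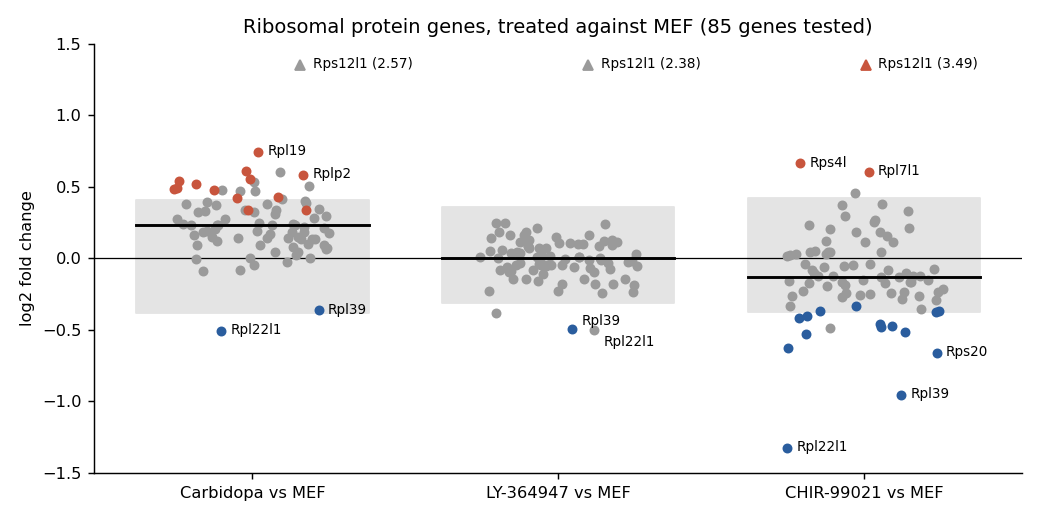
Log2 fold change against MEF of the 85 ribosomal protein genes tested, 1 point per gene, red for higher and blue for lower at an adjusted p under 0.05 (edgeR), with the members' median as a black line and the span between the quartiles of all 15154 genes in grey. The members centre at 0.23 for carbidopa, 0.00 for LY-364947 and -0.13 for CHIR-99021, and a triangle marks Rps12l1, which lies beyond the axis.

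Rpl39 fell in all 3 treatments. It encodes a small protein that lines the exit tunnel for the nascent chain, and lies at chrX:37082520-37085402 on the minus strand (GRCm38). It had 127 and 137 CPM in MEF, 106 and 99.1 CPM after carbidopa, 97.2 and 90.3 CPM after LY-364947, and 61.4 and 74.9 CPM after CHIR-99021. No treated library reached either MEF library, and the CHIR-99021 libraries were below the other treated ones. The log2 fold changes were -0.36 ± 0.12 (adjusted p = 0.0318), -0.49 ± 0.12 (0.00854) and -0.95 ± 0.12 (0.000126, all edgeR). The 3 comparisons share the MEF libraries. The CHIR-99021 call held with each library left out in turn, the LY-364947 call in 6 of 8 cases and the carbidopa call in 4 of 8.

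Rpl22l1, the paralog of Rpl22, had the lowest fold change of the members in each of the 3 comparisons. Its gene lies at chr3:28805436-28807424 on the plus strand. It had 20.7 and 23.0 CPM in MEF, 13.8 and 17.0 CPM after carbidopa, 15.5 and 15.4 CPM after LY-364947, and 7.25 and 10.2 CPM after CHIR-99021. The groups did not overlap between MEF and any treatment. It fell by 1.32 ± 0.18 on the log2 scale after CHIR-99021 (adjusted p = 0.000262, edgeR). After carbidopa it fell by 0.50 ± 0.17 (adjusted p = 0.0411), and after LY-364947 the value was -0.50 ± 0.17 (adjusted p = 0.0511, both edgeR). With each library left out in turn the carbidopa value ran from -0.66 to -0.37, and the call was lost in most cases. Rpl22 itself, an RNA-binding protein of the large subunit, did not pass in any comparison with MEF and had 158 and 169 CPM in MEF against 148 and 147 CPM after CHIR-99021. Rpl22l1 has the lowest GC of the members, 40.6%, and with an offset for GC in each library its fold changes were -0.39 (adjusted p = 0.0521), -0.48 (0.0272) and -1.18 (0.000181).

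Rps27 and Rps27l, near-identical zinc-finger proteins of the small subunit of which the second is a known p53 target, were on different sides of the threshold after CHIR-99021. Rps27 had 149 and 158 CPM in MEF, 169 and 154 CPM after carbidopa, 160 and 148 CPM after LY-364947, and 87.7 and 111 CPM after CHIR-99021. Only the CHIR-99021 libraries lay outside the range of the others, with a log2 fold change of -0.63 ± 0.13 (adjusted p = 0.00292, edgeR). Rps27l had 109 and 113 CPM in MEF and 92.2 and 106 CPM after CHIR-99021, a log2 fold change of -0.17 ± 0.11 (adjusted p = 0.264, edgeR), and the difference between the paralogs was not tested. Of the 75-base words of Rps27, 98.5% occur in other annotated genes, so its reads could be split or lost in counting. Rps27rt, an intronless copy outside the naming rule of the members, fell by 0.67 ± 0.17 on the log2 scale after CHIR-99021 (adjusted p = 0.00938, edgeR).

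Other small-subunit members fell after CHIR-99021. Rps20 went from 224 and 235 CPM in MEF to 152 and 139 CPM, a log2 fold change of -0.66 ± 0.13 (adjusted p = 0.00274, edgeR). Rps15a went from 243 and 242 CPM to 165 and 172 CPM, a log2 fold change of -0.53 ± 0.10 (adjusted p = 0.00253, edgeR). Rps29, a zinc-binding protein of the small-subunit head, went from 121 and 116 CPM to 81.4 and 90.3 CPM, a log2 fold change of -0.46 ± 0.10 (adjusted p = 0.00442, edgeR). Replicates of both groups were close together for these 3 genes and the groups did not overlap. Rps21, called higher after carbidopa, had 77.1 and 79.6 CPM in MEF and 59.3 and 61.7 CPM after CHIR-99021. Its log2 fold change was -0.37 ± 0.12 (adjusted p = 0.0311, edgeR), and Rps13 fell by 0.40 ± 0.13 (adjusted p = 0.0302, edgeR). With each library left out in turn the values ran from -0.40 to -0.34 for Rps21 and from -0.46 to -0.35 for Rps13. Both calls were lost in most cases.

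In the large subunit Rpl10, the last-joining protein of the tRNA-binding core, had 415 and 425 CPM in MEF and 289 and 299.8 CPM after CHIR-99021. The log2 fold change was -0.51 ± 0.11 (adjusted p = 0.00436, edgeR), though 91.9% of its 75-base words occur in other genes. The stalk protein Rplp1 fell from 501 and 567 CPM to 364 and 405 CPM, by 0.47 ± 0.13 on the log2 scale (adjusted p = 0.0167, edgeR). Its stalk partners Rplp2 and Rplp0 had log2 fold changes of 0.27 ± 0.17 and -0.10 ± 0.15 and did not pass. Rpl17, Rpl31, Rpl35a, Rpl37a and Rps28, named because they passed the test, fell by 0.33 to 0.48.

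The 3 members that rose after CHIR-99021 were Rpl7l1 and the annotated pseudogenes Rps4l and Rps12l1. Rpl7l1, a relative of Rpl7 whose yeast counterpart is an assembly factor of the large subunit, had 56.7 and 55.3 CPM in MEF, 84.5 and 62.1 CPM after carbidopa, 56.2 and 66.4 CPM after LY-364947, and 88.4 and 81.9 CPM after CHIR-99021. Both CHIR-99021 libraries were well above MEF, with a log2 fold change of 0.61 ± 0.15 (adjusted p = 0.00875, edgeR). With each library left out in turn the value ran from 0.55 to 0.66, and the call was lost in some cases. Rpl7 itself had a value of -0.25 ± 0.12 (adjusted p = 0.14, edgeR). Rps4l, annotated as a transcribed processed pseudogene of Rps4x, had 20.4 and 18.8 CPM in MEF and 34.3 and 27.8 CPM after CHIR-99021 (log2 fold change 0.67 ± 0.20, adjusted p = 0.0252, edgeR), and Rps4x had a value of -0.28 ± 0.12 (adjusted p = 0.0825, edgeR). With an offset for GC, which at 61.3% is the highest of the members in Rps4l, that value was 0.30 (adjusted p = 0.0938).

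Rps12l1, annotated as a processed pseudogene, rested on very few reads: 3 and 0 in MEF, 3 and 25 after carbidopa, 7 and 14 after LY-364947, and 25 and 18 after CHIR-99021. The ratio of summed reads to MEF, each sum divided by the TMM-scaled sizes of its libraries, was 12.0 after CHIR-99021 (95% exact conditional interval 3.84 to 60.4, counting error only; adjusted p = 0.0304, edgeR). After carbidopa and LY-364947 the ratios were 6.33 (1.96 to 32.5) and 5.54 (1.65 to 29.0), and neither passed the test. Each of its 75-base words also occurs in some other annotated gene, and 24 other genes share some of them.

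**Figure D4:**
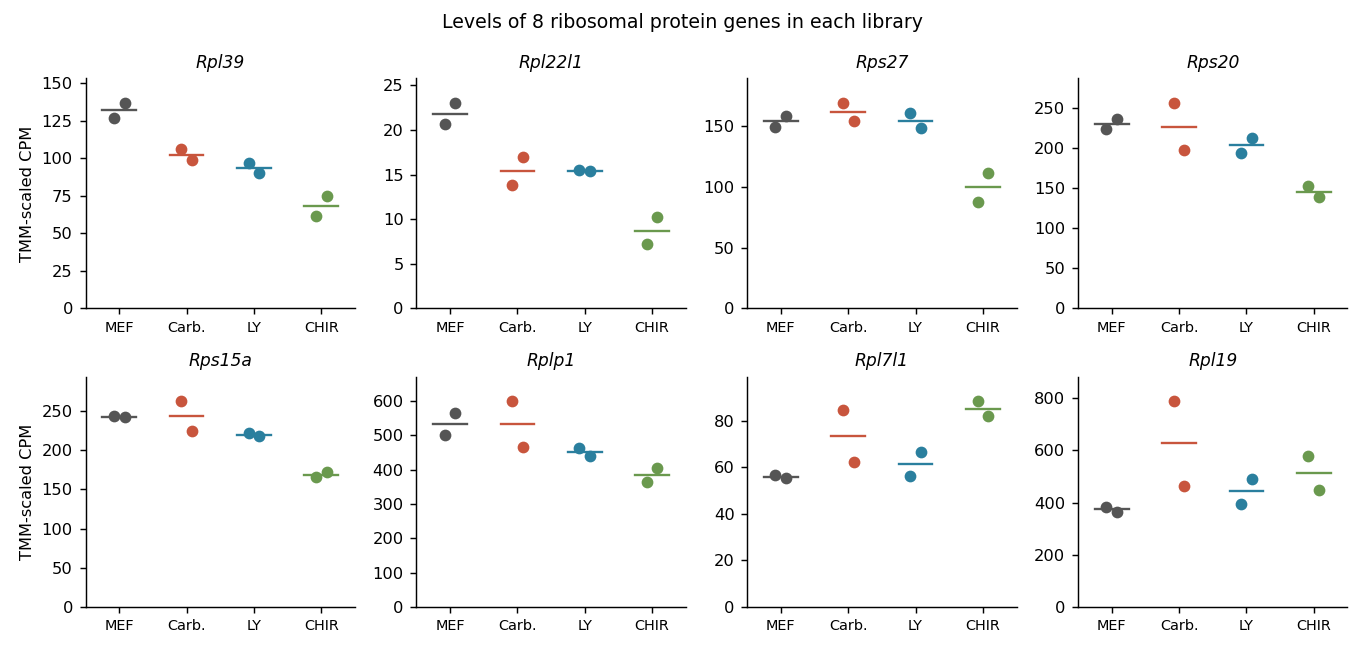
TMM-scaled CPM (axes from 0) of 8 ribosomal protein genes, 1 point per library, with replicate 1 on the left and a line at the mean of 2 (Carb., carbidopa; LY, LY-364947; CHIR, CHIR-99021). Rpl39 and Rpl22l1 are below MEF in all 6 treated libraries, Rps27, Rps20, Rps15a and Rplp1 are lowest after CHIR-99021, and Rpl19 is highest in carbidopa replicate 1.

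The CHIR-99021 calls moved with single libraries too: 18 members with all 8, 41 without either carbidopa library, 9 and 7 without MEF replicates 1 and 2, and 7 without CHIR-99021 replicate 1. In these fits 7 to 30 members fell. Rpl22l1, Rpl39, Rps20, Rps27, Rps15a and Rpl10 kept an adjusted p under 0.05 with each of the 8 libraries left out in turn.

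The remaining paralogs did not pass the test against MEF. Rpl3 had log2 fold changes of 0.18 ± 0.10, -0.05 ± 0.10 and -0.11 ± 0.10 in the comparisons of carbidopa, LY-364947 and CHIR-99021 with MEF. Rpl36a had values of 0.23 ± 0.13, 0.07 ± 0.13 and -0.24 ± 0.13, and its intronless paralog Rpl36al, outside the naming rule, had 0.15 ± 0.14, -0.19 ± 0.14 and -0.12 ± 0.14. The pseudogene Rpl6l had 17 to 47 reads per library and values of 0.10 ± 0.37, -0.38 ± 0.39 and -0.24 ± 0.39.

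Comparisons between treatments used the same fit and the same 10 µM dose. CHIR-99021 against carbidopa gave 24 members lower (28.2%) and 0 higher, where 8.08% and 6.62% of all genes tested were lower and higher (edgeR; at an unadjusted p under 0.05, 59 members or 69.4% against 29.4% of all genes; DESeq2 called 36 lower and 0 higher). The median was -0.36, and without carbidopa replicate 1 it was -0.13. The 3 smallest p were those of Rps21 (-0.71 ± 0.12, adjusted p = 0.00339), Rps27 (-0.70 ± 0.13, 0.00489) and Rps15a (-0.53 ± 0.10, 0.00715). Without carbidopa replicate 2 the median was -0.59. With any 1 MEF, LY-364947 or CHIR-99021 library left out the test called fewer than 24 members.

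CHIR-99021 against LY-364947 gave 8 members lower (9.41%) and 0 higher, where 7.69% and 6.45% of all genes tested were lower and higher (edgeR; at an unadjusted p under 0.05, 19 members or 22.4% against 29.0% of all genes; DESeq2 called 8 lower and 1 higher). They were Rpl17, Rpl22l1, Rpl39, Rps15a, Rps20, Rps21, Rps27 and Rps29, all of which were also lower against MEF. Rps27 had the smallest p (-0.63 ± 0.13, adjusted p = 0.00846), followed by Rpl22l1 (-0.82 ± 0.18, 0.0141) and Rps29 (-0.42 ± 0.10, 0.0197). Calls numbered 28 without either carbidopa library, 2 without either MEF library, 0 and 1 without LY-364947 replicates 1 and 2, and 0 and 3 without CHIR-99021 replicates 1 and 2.

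LY-364947 against carbidopa gave 0 members in either direction, where 0.0132% of all genes tested were higher and 0% lower (edgeR; DESeq2 also called 0 members). At an unadjusted p under 0.05 there were 15 members (17.6%) against 9.02% of all genes tested. The log2 fold change was below 0 for 83 of 85, with a median of -0.25. Rpl39l (-0.41 ± 0.16), Rpsa (-0.38 ± 0.15) and Rps6 (-0.34 ± 0.14) had the smallest p, each with an adjusted p of 0.519. The median was -0.45 without carbidopa replicate 2 and -0.03 without carbidopa replicate 1.

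Base composition went with the fold changes as well as with the replicates. Across the 85 members Spearman's rho between GC percent and the log2 fold change against MEF was 0.41 for carbidopa, 0.38 for LY-364947 and 0.44 for CHIR-99021, and over 15126 genes 0.18, 0.07 and 0.24. With transcript length rho over all genes was -0.25, -0.08 and -0.10 in these comparisons and 0.44 for LY-364947 against carbidopa, and across the members 0.11, -0.08, 0.21 and -0.29. With a GC offset fitted in each library, 9 members rose and 1 fell after carbidopa, 0 and 2 after LY-364947, and 2 and 23 after CHIR-99021.

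Reads on other copies of ribosomal protein genes were highest in carbidopa replicate 1, like those on the members. Genes carrying the pseudogene mark, 278 in the table, took 104 and 113 CPM in MEF, 170 and 131 CPM after carbidopa, 112 and 123 CPM after LY-364947, and 106 and 110 CPM after CHIR-99021. Per 1000 member reads this was 4.29 to 5.19 in all 8 libraries. Of the 36 that could be tested 2 rose after carbidopa (Rpl19-ps11 and Rps23-ps2) and 2 fell after CHIR-99021. Among all genes tested 18% rose after carbidopa and 20.1% fell after CHIR-99021. The 2 rises became 0 without MEF replicate 2 or carbidopa replicate 1, 3 without MEF replicate 1 and 6 without carbidopa replicate 2, and the 2 falls became 0 without MEF replicate 2 or CHIR-99021 replicate 1. Shared sequence is common: 43 of the 85 members tested have over 50% of their 75-base words in another annotated gene.

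Of 36 ribosome assembly factors 21 rose and 0 fell after CHIR-99021, where 18.7% and 20.1% of all genes tested did, with a median log2 fold change of 0.44, where the ribosomal proteins had a median of -0.13 in the same libraries. Mybbp1a, a nucleolar protein of ribosomal RNA synthesis, rose by 0.87 ± 0.11 (adjusted p = 0.000183, edgeR). Rrs1, which brings 5S RNA and its proteins into the large subunit, rose by 1.25 ± 0.22 (adjusted p = 0.00125, edgeR), and Rrp12, an export factor of the small subunit, by 0.82 ± 0.15 (adjusted p = 0.00183, edgeR). After carbidopa 2 of the 36 rose and 4 fell (median 0.10), and after LY-364947 0 rose and 3 fell (median -0.12). The all-gene shares were 18% and 19.7% after carbidopa, and 13.7% and 17.2% after LY-364947. Left out in turn, MEF replicates 1 and 2 left 9 and 7 of the 36 higher after CHIR-99021, CHIR-99021 replicate 1 left 6, and either carbidopa library gave 29, with none lower in any of the 8 cases.

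Of 15 subunits and factors of RNA polymerase I 6 rose after CHIR-99021 (median 0.41), 0 after carbidopa (0.22) and 1 after LY-364947 (0.12), and none fell. Polr1e, Polr1b and Polr1a rose after CHIR-99021 by 0.74 ± 0.16, 0.64 ± 0.14 and 0.59 ± 0.14 (adjusted p = 0.00479, 0.0053 and 0.00821, edgeR). The 6 became 2 without either MEF library, 1 without CHIR-99021 replicate 1 and 9 without carbidopa replicate 1 or 2. The all-gene shares that rose and fell were 18.7% and 20.1% after CHIR-99021, 18% and 19.7% after carbidopa, and 13.7% and 17.2% after LY-364947. Of 10 chaperones and importins of ribosomal proteins 3 rose and 1 fell after CHIR-99021, 1 and 3 after carbidopa and 0 and 2 after LY-364947. The importin Ipo7 fell by 0.49 ± 0.10 after carbidopa and by 0.51 ± 0.10 after LY-364947 (adjusted p = 0.00418 and 0.00318, edgeR), Heatr3 fell in all 3, and Ipo5 rose by 0.43 ± 0.09 after CHIR-99021 (adjusted p = 0.0051, edgeR). With MEF replicate 2 left out none of the 10 passed after carbidopa or CHIR-99021, and with CHIR-99021 replicate 1 left out 1 rose after CHIR-99021.

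Mitochondrial ribosomal proteins, which are nuclear-encoded and build a separate ribosome, took 0.151% and 0.143% of reads in MEF, 0.256% and 0.193% after carbidopa, 0.180% and 0.192% after LY-364947, and 0.223% and 0.206% after CHIR-99021. Of 78 tested, 25 rose and 0 fell after carbidopa (median 0.38), 0 and 0 after LY-364947 (0.14), and 29 and 1 after CHIR-99021 (0.36). The shares of all genes tested were 18% and 19.7%, 13.7% and 17.2%, and 18.7% and 20.1%. Mrpl38 rose by 0.79 ± 0.15 and Mrpl45 by 0.78 ± 0.15 after CHIR-99021 (adjusted p = 0.00191 and 0.00204, edgeR), and Mrpl24 by 0.64 ± 0.14 after carbidopa (adjusted p = 0.00597, edgeR). The 25 became 9 and 2 without MEF replicates 1 and 2, and 11 and 64 without carbidopa replicates 1 and 2. The 29 became 10 and 3 without MEF replicates 1 and 2, 50 without either carbidopa library, 16 without either LY-364947 library, and 4 and 17 without CHIR-99021 replicates 1 and 2.

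Other TOP mRNAs, which share their translational control with the members, were mixed. Of 16, 3 rose after carbidopa, 0 changed after LY-364947, and 1 rose and 2 fell after CHIR-99021. Among all genes tested 18% rose and 19.7% fell after carbidopa, 13.7% and 17.2% after LY-364947, and 18.7% and 20.1% after CHIR-99021. The share that rose after carbidopa was thus near that of all genes. The 3 became 1 and 0 without MEF replicates 1 and 2, and 1 and 9 without carbidopa replicates 1 and 2. Without either carbidopa library 3 rose and 1 fell after LY-364947, and 4 rose and 4 fell after CHIR-99021. The elongation factor Eef1a1 fell by 0.51 ± 0.10 after CHIR-99021 (adjusted p = 0.00222, edgeR) and the initiation factor subunit Eif3e by 0.44 ± 0.11 (adjusted p = 0.00785, edgeR), while the splicing regulator Hnrnpa1 rose by 0.66 ± 0.12 after CHIR-99021 and by 0.49 ± 0.12 after carbidopa (adjusted p = 0.00127 and 0.0078, edgeR). Of 6 genes listed by name as elongation factors 1 fell in each treatment. After carbidopa and LY-364947 it was Eef1e1 (-0.52 ± 0.12 and -0.77 ± 0.12, adjusted p = 0.00681 and 0.000697, edgeR), and after CHIR-99021 it was Eef1a1. No other gene of this list passed after carbidopa or LY-364947. Eef1d, an exchange factor, did not pass. Of 36 initiation factors 5 rose and 6 fell after carbidopa, 0 and 6 after LY-364947, and 8 and 4 after CHIR-99021, where all genes had 18% and 19.7%, 13.7% and 17.2%, and 18.7% and 20.1%. With single libraries left out the initiation factors higher and lower ran from 0 to 14 and 1 to 7 after carbidopa (0 and 1 without either MEF library, 2 and 7 and 14 and 7 without carbidopa replicates 1 and 2, 5 and 3 without any 1 of the other 4), and from 0 to 16 and 1 to 6 after CHIR-99021 (0 and 1 without its replicate 1, 1 and 2 and 1 and 1 without MEF replicates 1 and 2, 16 and 6 without either carbidopa library). After LY-364947 they ran from 0 to 3 and 3 to 9, the highest without either carbidopa library. Eif1ax, a start-site selection factor, fell in all 3 (-0.77 ± 0.10, -0.89 ± 0.10 and -0.47 ± 0.10), as did Eif2s2 of the eIF2 complex, and Eif3j1 fell after carbidopa and LY-364947.

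Genes of the mTOR pathway went both ways, with 8 higher and 6 lower of 30 after carbidopa, 4 and 3 after LY-364947, and 5 and 5 after CHIR-99021, where all genes had 18% and 19.7%, 13.7% and 17.2%, and 18.7% and 20.1%. With single libraries left out the counts ran from 2 to 11 higher and 1 to 11 lower after carbidopa, 2 to 5 and 1 to 7 after LY-364947, and 1 to 10 and 3 to 8 after CHIR-99021, lowest without a MEF library and highest without a carbidopa library, apart from 1 lower after LY-364947 also without either of its own libraries and 3 lower after CHIR-99021 also without either of its own. Rragc, a Rag GTPase that carries the amino acid signal, fell in all 3 (-0.43 ± 0.10, -0.48 ± 0.10 and -0.61 ± 0.10). Sesn1, an inhibitor of mTORC1, rose by 0.84 ± 0.14 after carbidopa and 0.82 ± 0.14 after LY-364947. Sesn3 fell by 0.70 ± 0.15 after carbidopa and 0.81 ± 0.15 after CHIR-99021.

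Myc itself, an activator of ribosome production, fell after carbidopa (-0.70 ± 0.12, adjusted p = 0.00134) and LY-364947 (-1.15 ± 0.13, adjusted p = 5.93e-05) and rose after CHIR-99021 (0.67 ± 0.12, adjusted p = 0.00142, all edgeR). Of 11 genes of its network 1 rose and 3 fell after carbidopa, 0 and 2 after LY-364947, and 2 and 2 after CHIR-99021. The shares of all genes tested were 18% and 19.7%, 13.7% and 17.2%, and 18.7% and 20.1%. Max, the partner of Myc, fell in all 3 and the antagonist Mxd4 after carbidopa and CHIR-99021. Of 8 host RNAs of small nucleolar RNAs, Snhg8 rose in all 3 (0.97 ± 0.21, 0.86 ± 0.21 and 0.78 ± 0.21), and Snhg1 and Snhg3 fell after LY-364947. Of 5 ribosomal protein genes outside the naming rule only Rps27rt passed, and Fau, which fuses a ribosomal protein to a ubiquitin-like protein, did not.

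**Figure D5:**
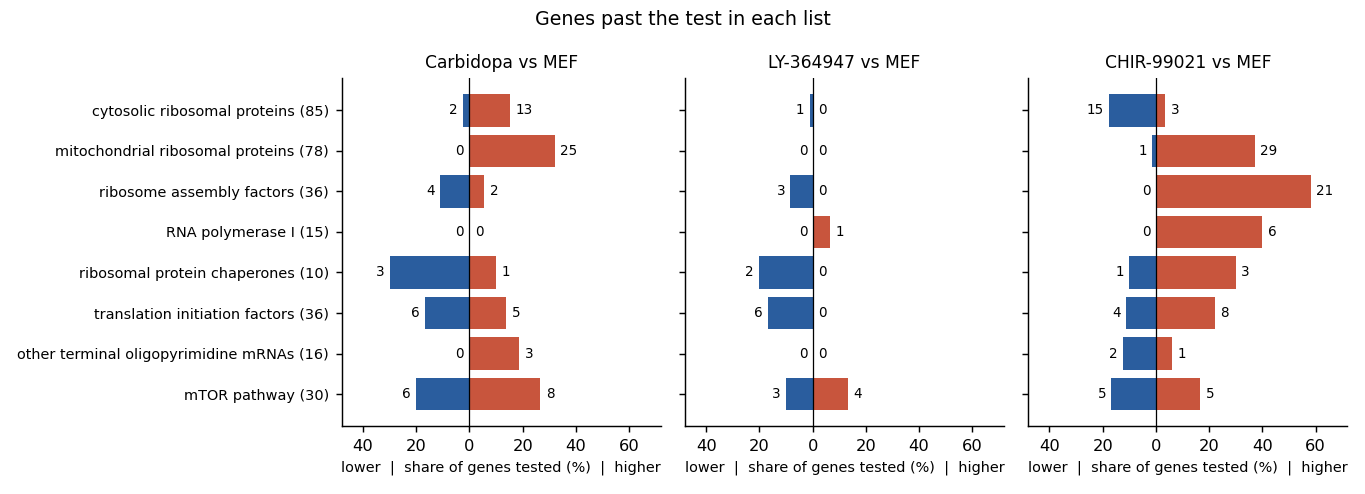
Share of genes tested in each list (number in brackets) that passed the test against MEF, red to the right for higher and blue to the left for lower, with the count beside each bar (adjusted p under 0.05, edgeR). After CHIR-99021 21 of 36 assembly factors were higher and 0 lower, against 3 and 15 of 85 cytosolic ribosomal proteins.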

How the data were processed

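RNA-seq libraries of MEFs and treated MEFs were analysed, 2 per group. The authors mapped paired reads to mm10 with STAR 2.4.2a and counted them on genes with featureCounts; the annotation release, the strand setting and the treatment of reads that map to several places are not given in the sources used here. The labels name a SMARTER kit and the study's methods a NEBNext kit. They deposited raw counts per gene without normalization, in 1 table whose column names match the labels. Groups came from the labels.

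Counts were analysed in R 4.3.3 with edgeR 4.0.16 (TMM, filterByExpr, quasi-likelihood test, 1 joint fit of the 8 libraries with no term besides group), which kept 15154 of 50578 genes and 85 of 88 members. The biological coefficient of variation was 11.0%. P-values were adjusted by Benjamini-Hochberg over all genes tested, and standard errors follow from the test statistic. CPM values of members are TMM-scaled, sums over lists and shares are not. Scripts were tested on simulated data. Each replicate pair differed by more than sampling noise (chi-square per degree of freedom 4.35 to 36.4), so none was a library deposited more than once.

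Positions, transcript length, GC and shared 75-base words come from GENCODE M21 transcripts (GRCm38), in which 50354 identifiers were found, and promoters from RefSeq (GRCm38.p6, the start nearest to the GENCODE start). Members and lists were chosen with earlier results of these data known. Named members were the 3 lowest and 3 highest fold changes in each comparison with MEF, the 3 smallest p in each comparison between treatments, paralog pairs, stalk proteins, Rpsa, the 3 highest levels per length and all untested members; from each list up to 3 genes with the smallest p. Alternatives were DESeq2 1.42.0 (Wald test), RLE size factors, TMM without the members, no filter, at least 10 reads in every library, only the groups compared, a replicate block, and each library left out in turn, and, added after the values were seen, a GC offset and each list without carbidopa replicate 1. Values of some single genes are not reported here.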

Additional observations from a re-analysis of the deposited data

How the results depend on the processing

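The number of members called depended on the libraries and the fit. Leaving out each library in turn gave 0 to 72 calls for carbidopa against MEF, 0 to 10 for LY-364947, 7 to 41 for CHIR-99021, 0 to 74 for LY-364947 against carbidopa, 0 to 79 for CHIR-99021 against carbidopa and 0 to 28 for CHIR-99021 against LY-364947. The members' median log2 fold change then ran from 0.0066 to 0.43, from -0.04 to 0.05, from -0.15 to -0.10, from -0.45 to -0.03, from -0.59 to -0.13 and from -0.17 to -0.03. Calls over all lists ran from 33 to 194, 35 to 89 and 46 to 185 in the comparisons with MEF. A group left with 1 library is assumed to vary like the others. The share of all genes that passed in these fits is not given here. Their counts therefore do not set the members apart from other genes. Without a filter on low counts the calls were 37 for carbidopa, 3 for LY-364947, 4 for LY-364947 against carbidopa and 47 for CHIR-99021 against carbidopa. A fit of only the groups compared gave 1, 13 and 43 against MEF, 3 for CHIR-99021 against carbidopa, 22 for CHIR-99021 against LY-364947, and 61, 98 and 180 list genes where the fit of all groups gave 93, 48 and 119. RLE size factors and the GC offset each gave 2 for LY-364947. The cause of these shifts was not tested. Of 1435 values of named members recomputed, 1278 kept their side of the threshold, 77 lost a call and 80 gained one. No called value reversed, and 47 values that were not called changed sign.

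Whether same-numbered libraries were paired is not given in the sources used here. Over the genes tested, correlations between the replicate differences of the groups ran from -0.157 to 0.124. These cannot settle pairing, since the replicate differences also varied with GC percent. A replicate block gave 15, 2 and 18 members against MEF, and 0, 18 and 6 between treatments.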
